A study of Saccharomyces cerevisiae with 8 samples.

Results

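The average response of budding yeast (Saccharomyces cerevisiae) to mutation of the Mediator middle module was measured as the newly made RNA of 3 mutant strains against the strain used as their parent. All 6 mutant libraries and both parent libraries entered, which is 8 of the 8 libraries of the series. Each mutant group carried equal weight in the average, whatever the spread between its libraries. Of 6030 annotated transcripts, 284 had too few reads to test, and 5746 were tested. The parent group is strain HS1004, and the mutants are J121 with the med7-1002 allele, J20 with med21-1002 and J84 with med10-1002, each represented by 2 libraries. According to the labels, all 4 strains share the mating type MATa, the Hsp90 gene mutation hsp82-, a DHSE-lacZ reporter, the nutritional markers ura3, trp1-1, ade-, his3-11,15 and mutant alleles of leu2, and the resistance markers cyh2r and can1-100, so the hsp82- background is common to the parent and the mutants. Cultures grew in the rich glucose medium YPD at 30 °C from an OD600 of 0.1 to 0.8, and received 4-thiouracil at 5 mM for 6 min before harvest, so that RNA made in this window could be purified through the incorporated base. The series names as its aim the effect of Mediator subunit mutations on transcription across the genome. Every mutant is represented by 1 strain, and the labels do not say whether the 2 libraries of a group stem from independent cultures. The p-values given here therefore reflect the scatter of these samples alone, and that scatter may be technical.

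Mediator is a large coactivator complex that joins DNA-bound activators to RNA polymerase II and the general transcription factors at promoters. Its head and middle modules form the core that contacts the polymerase, its tail module receives signals from activators, and its kinase module associates reversibly. Med7, Med21 and Med10 belong to the middle module, where Med7 and Med21 pair in a long hinged coiled coil and Med10 packs with Med4, Med14 and further subunits.

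Reads assigned to transcripts numbered between 10962170 and 23629303 per library. The share of reads that the counter placed in no annotated transcript was 32.7% and 33.5% in parent, and 49.5% and 37.7% in the med7-1002 libraries. For transcripts of up to 500 nt, med7-1002 replicate 1 also stood apart, with a median log2 difference to parent of 1.06. The same median was −0.11 in med7-1002 replicate 2, which lay within the −0.34 to 0.03 of the other 4 mutant libraries. The SD over transcripts of the log2 difference between the 2 libraries of a group was 0.92 for med7-1002, against 0.27 for parent, 0.37 for med21-1002 and 0.23 for med10-1002. The labels list the same pair of barcodes for med7-1002 and for med10-1002, without naming a run, and a batch effect was not tested. Counts of the spike-in RNA were not analysed here. Every value is therefore a share of its own library, given as CPM (the count scaled to a common library total) after TMM scaling, and less RNA made per cell cannot be told apart from a change in the other transcripts.

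The mating-type genes did not follow the labels, which call all strains MATa. MF(ALPHA)1, which encodes the pheromone of α cells, stood at 334 and 346 CPM in parent, 171 and 213 in med21-1002, and 192 and 169 in med10-1002, but at 0.879 and 0 in med7-1002. STE3, the receptor that α cells use, read 390.0 and 344 CPM in parent and 2.11 and 0 in med7-1002. BAR1, a protease secreted by a cells, read 123 and 191 CPM in med7-1002 and no more than 4.68 in the other 6 libraries. The 6 tested a-specific genes summed to between 484 and 699 CPM in the libraries labelled med7-1002, against 26.8 to 27.7 in parent, 15.9 to 18.0 in med21-1002 and 62.8 to 64.5 in med10-1002. Most of the med10-1002 sum was STE2, the receptor that a cells use, at 58.3 and 56.9 CPM against 20.2 and 19.7 in parent. MFA1 and MFA2 lay below parent in med10-1002, and BAR1 read 4.39 and 4.22 against 4.68 and 4.03. The 4 tested α-specific genes summed to between 61.0 and 70.2 CPM in med7-1002, with 2 of them at 0 in a library, and to between 848 and 1287 CPM in the other 6 libraries, which go against the label. URA3, which encodes an enzyme of pyrimidine synthesis and is labelled ura3 in every strain, stood at 1114 and 887 CPM in med7-1002 and between 56.5 and 89.8 in the other 6 libraries. HSP82, labelled hsp82-, read between 3302 and 5906 CPM in all 8 libraries, but its near-identical copy HSC82 read between 3814 and 8275, and how reads that match both were treated is not given in the sources used here. Because these markers split the med7-1002 libraries from the rest, the average was also computed without them. For med7-1002, and for every average that includes it, an effect of the allele cannot be told apart from a difference in mating type or strain background. MED7 itself stood at 31.4 and 31.3 CPM in parent and 30.8 and 30.6 in the med7-1002 libraries, while SRB7, the gene of Med21, read 12.3 and 14.7 in parent and 10.3 and 13.6 in med21-1002. These alleles are not deletions, so a level near that of parent does not check the labels.

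On average over the 3 mutants, 1257 transcripts (21.9% of those tested) differed from parent at an adjusted p under 0.05, of which 704 (12.3%) were higher and 553 (9.62%) lower. The changes were mostly small. The median size of the average log2 fold change was 0.65 over the 1257, and 235 of them reached 2-fold. Only SPS4, a gene transcribed during sporulation, passed the stricter test that treats all 6 mutant libraries as 1 group (adjusted p = 0.0253 by edgeR's quasi-likelihood test), in which the spread between the mutants counts as error and 308 transcripts had an unadjusted p under 0.05. In that test LEU2 came next with an adjusted p of 0.0679. When every library was scaled by its total count alone, 620 transcripts were higher and 770 lower, so the balance of directions depends on the scaling. The number called also depended on single libraries. It was 349 without parent replicate 1, 191 without parent replicate 2, 2739 without med7-1002 replicate 1, 2656 without med7-1002 replicate 2, 697 without med10-1002 replicate 1 and 759 without med10-1002 replicate 2. Fits that leave a group with 1 library assume that this library varies like the other groups.

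The mutants were far from uniform. A test of the difference among the 3 mutant groups, whose contrasts leave out the parent level although the parent libraries help to set the error, called 3339 transcripts (58.1%). Each transcript has 1 error shared by all groups, although the SD between libraries was 0.92 for med7-1002 and 0.23 to 0.37 elsewhere. Differences that involve med7-1002 may thus be tested with too small an error, and others with too large a one. With limma voom weights per group, 2318 transcripts differed and 2187 were called on average. Of the 1257 transcripts called on average, 1126 (89.6%) also differed among the mutants, and for 131 (10.4%), 41 higher and 90 lower, no such difference was detected, which does not show that the mutants were alike. A further 2213 transcripts differed among the mutants without being called on average. For 1460 of these (25.4% of all tested), the libraries of 1 mutant lay above both parent libraries and those of another lay below both. Such values offset each other in a mean. These positions were not tested against parent, and how often they occur over all tested transcripts was not counted. The range over the 3 log2 fold changes of a transcript had a median of 1.17 among those called on average and 0.79 over all tested, while the 131 had a median range of 0.35. The median size of the log2 fold change over all tested transcripts was 0.57 in med7-1002, 0.23 in med21-1002 and 0.27 in med10-1002. Among the 3339 that differed, the mutant farthest from the mean of the other two was med7-1002 for 1975 (59.1%), med10-1002 for 1023 (30.6%) and med21-1002 for 341 (10.2%). Without the med10-1002 libraries the remaining pair of mutants differed at 1872 transcripts, in a fit whose error includes the wide spread of med7-1002. This count therefore does not show which pair of mutants was more alike.

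**Figure D1:**
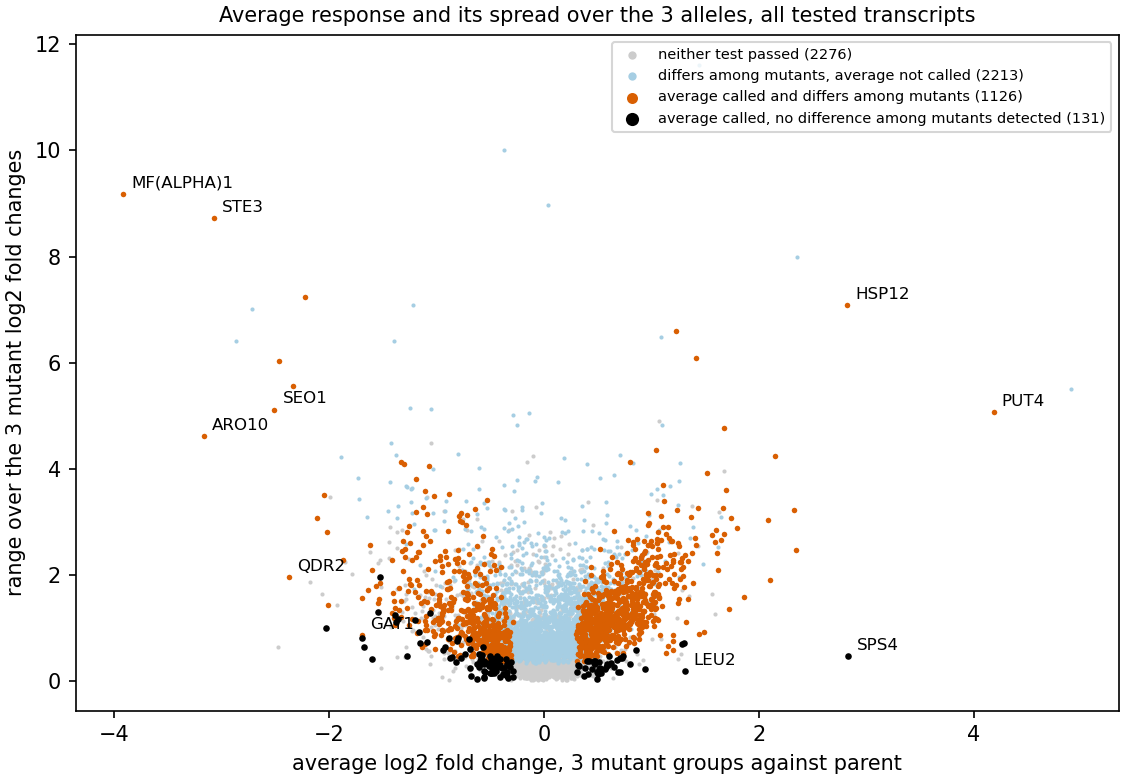
Each point is 1 of the 5746 tested transcripts, with its average log2 fold change over the 3 mutants against parent on the x axis and the range over the 3 mutant log2 fold changes on the y axis. Black points are the 131 called on average without a detected difference among the mutants, orange points the 1126 called on both tests, light blue points the 2213 that differed among the mutants only, and grey points the 2276 that passed neither test. Named points far up the plot, such as PUT4, ARO10 and HSP12, have averages that lie between unlike values of the separate mutants, while SPS4 and LEU2 lie far out and low.

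Leaving out the med7-1002 libraries gave the average of med21-1002 and med10-1002. It called 1578 transcripts (27.5%), of which 878 (15.3%) were higher and 700 (12.2%) lower. Both averages called 810 transcripts, and 447 of the 1257 were called only with med7-1002 included. These 2 averages share the parent and 4 mutant libraries, so the 810 are a count and not a test. Med21-1002 and med10-1002 differed from each other at 2696 transcripts, in a fit whose error leaves out the wide spread of med7-1002. All 6 mutant libraries lay above both parent libraries for 497 transcripts (8.65%) and below both for 525 (9.14%), and 358 and 333 of these were also called on average in the same direction. Gene lists are described next by how many of their tested members passed, beside these shares of all transcripts and the median average log2 fold change of 0.01 over all 5746.

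SPS4 and LEU2 rose on average with a small range over the 3 mutants, although a difference among the mutants was detected under some settings. SPS4 read 3.83 and 4.47 CPM in parent, while med7-1002 gave 36.6 and 30.4, med21-1002 22.5 and 25.7, and med10-1002 32.0 and 32.1. All 6 mutant libraries lay far above parent, and the average log2 fold change was 2.83 ± 0.18 (SE, adjusted p = 6.88e-05 by edgeR's quasi-likelihood test). The difference among the mutants did not pass (adjusted p = 0.0859), although med21-1002 and med10-1002 differed once the med7-1002 libraries were left out (adjusted p = 0.0246), and the difference passed without med7-1002 replicate 1 (adjusted p = 0.0426) or replicate 2 (adjusted p = 0.0125). LEU2, which encodes an enzyme of leucine synthesis and is labelled with mutant alleles in all strains, had the smallest range over the mutants among the genes of at least 2-fold average change and mean log2 CPM of at least 3. It read 63.9 and 67.1 CPM in parent and between 141 and 175 in the 6 mutant libraries, with log2 fold changes of 1.22, 1.41 and 1.32 in med7-1002, med21-1002 and med10-1002. Its range of 0.20 did not pass the test of a difference in this fit (adjusted p = 0.36), but passed narrowly with library-size scaling (adjusted p = 0.0492), with a length correction (adjusted p = 0.0494) and without med7-1002 replicate 2 (adjusted p = 0.0317).

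Among the genes with the next smallest ranges, 3 more were higher. OPT2, an oligopeptide transporter, read 92.7 and 76.9 CPM in parent and between 155 and 246 in the mutants, and rose 2.20-fold on average. ARA2, an arabinose dehydrogenase, rose 2.303-fold, from 34.4 ± 4.34 CPM in parent (SD, n = 2) to means of 82.1, 95.8 and 63.4 in the 3 mutants in the order med7-1002, med21-1002 and med10-1002. TAT1, a permease for tyrosine, tryptophan and branched-chain amino acids, rose 2.23-fold, from 181 ± 0.431 CPM (SD, n = 2) to means of 461, 476 and 298. All 3 genes still differed among the mutants, with adjusted p-values of 0.0248, 0.0159 and 0.00642. That call was lost for OPT2 without any 1 of the med21-1002 or med10-1002 libraries, for ARA2 without med21-1002 replicate 2 or either med10-1002 library, and for TAT1 without either med10-1002 library. An Xrn1-sensitive transcript that covers 95.8% of TAT1 on the opposite strand, XUT_2F-154, fell by 0.83 on the log2 scale. Whether strands were kept apart in counting is not given in the sources used here and was not tested. The counter set aside between 0.054% and 0.19% of reads per library as ambiguous between transcripts, while TAT1 read 181 CPM and XUT_2F-154 176.5 CPM in parent.

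On the lower side, the coding transcripts of the smallest ranges under the naming rule were, in order, YFL021C-A, FTH1, NCW2 and ROQ1. FTH1, an iron transporter of the vacuole, read 429 and 418 CPM in parent and between 168 and 278 in the 6 mutant libraries, and was 2.01-fold lower on average. NCW2, a cell wall protein, read 153 and 177 CPM in parent and between 56.5 and 100.4 in the mutants, and was 2.19-fold lower. ROQ1, a stress-induced regulator of protein degradation, was 2.16-fold lower on average (adjusted p = 0.00214), a call that was lost without parent replicate 2, where its log2 fold change was −1.01. Each of these 3 genes had mutant libraries that all lay below both parent libraries. Their ranges were 0.62, 0.66 and 0.71, and the difference among the mutants passed the test for all 3 (adjusted p of 0.00912, 0.0181 and 0.0381). It no longer passed for FTH1 without med10-1002 replicate 2, for NCW2 without med21-1002 replicate 2 or either med10-1002 library, and for ROQ1 without any 1 of the parent, med21-1002 or med10-1002 libraries. YFL021C-A had a range of 0.48 with no detected difference among the mutants (adjusted p = 0.524), at 11.7 and 17.9 CPM in parent and between 4.52 and 10.9 in the mutants. It overlaps GAT1 on the opposite strand over 87.1% of its span, and its call was lost without any 1 of the parent, med21-1002 or med10-1002 libraries.

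Among the largest average falls, GAT1, QDR2, TIS11 and PRY3 were below parent in all 3 mutants, with the lowest mean in med7-1002. GAT1, an activator of genes for the use of poor nitrogen sources and a member of the GATA factor family, read 349.6 and 407 CPM in parent against 77.3 and 88.0 for med7-1002, 133 and 123 for med21-1002, and 149 and 154 for med10-1002. It was 3.23-fold lower on average (log2 fold change −1.69 ± 0.10 SE, adjusted p = 6.17e-05 by edgeR's quasi-likelihood test). QDR2, a plasma membrane transporter of drugs and cations, read 76.1 and 72.8 CPM in parent and means of 6.97, 16.1 and 26.8 in the mutants in the same order, and was 5.17-fold lower. TIS11, an RNA-binding protein that directs decay of messages for iron-using proteins when iron is scarce, read 144 and 164 CPM in parent, with 24.3 and 16.8 for med7-1002, 51.7 and 47.4 for med21-1002, and 50.3 and 59.7 for med10-1002. It was 4.03-fold lower on average (adjusted p = 8.5e-05), and the med21-1002 and med10-1002 libraries overlapped each other while those of med7-1002 lay below both. PRY3, a cell wall protein, was 3.23-fold lower, with means of 48.9, 69.3 and 146 CPM in the mutants against 256 in parent. YDR215C was also 3.23-fold lower (adjusted p = 0.0206), with the highest mutant mean in med7-1002, at 11.6 CPM against 8.22 in med21-1002 and 6.48 in med10-1002. It overlaps AHA1 on the opposite strand over 62.8% of its span at about 27.4 CPM in parent against 1014 for AHA1, and its call was lost without either parent library, without med21-1002 replicate 2 and without med10-1002 replicate 1, where its log2 fold change was −2.08, −1.16, −1.61 and −1.64.

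The promoters of GAT1 and TIS11 are shown because both genes fell in all 3 mutants and each holds repeats of a motif of a known regulator class. The letters are the 250 bases before the annotated start on the gene's own strand, read from the R64 genome of RefSeq, at chrVI:95678-95927 on the plus strand for GAT1 and chrXII:416695-416944 on the minus strand for TIS11. Capitals mark GATAAG, the core bound by GATA factors, in GAT1, where it occurs 4 times with some copies that overlap, and GCACCC, the core bound by the iron regulator Aft1, in TIS11, where it occurs 2 times, counting both strands.
GAT1: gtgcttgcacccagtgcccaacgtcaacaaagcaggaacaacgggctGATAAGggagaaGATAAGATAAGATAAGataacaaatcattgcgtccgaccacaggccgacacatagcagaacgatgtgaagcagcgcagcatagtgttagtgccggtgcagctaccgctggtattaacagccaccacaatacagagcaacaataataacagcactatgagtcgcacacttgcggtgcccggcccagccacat
TIS11: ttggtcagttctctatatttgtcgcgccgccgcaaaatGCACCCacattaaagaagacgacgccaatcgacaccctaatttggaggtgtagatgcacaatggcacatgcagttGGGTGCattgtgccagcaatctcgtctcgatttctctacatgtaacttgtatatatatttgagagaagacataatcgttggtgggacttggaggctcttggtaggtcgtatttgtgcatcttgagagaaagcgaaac
Over the 4907 tested coding genes, GATAAG was found on either strand in 11.96% of such windows, and in 12.6% of the 492 genes that were lower on average. GCACCC was found in 3.53% of all windows, in 6.91% of the lower genes and in 9.09% of the 77 lower genes of at least 2-fold, against 3.17% of the 693 higher genes. These shares are descriptions, and a match of letters is not a binding site.

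Some named genes changed strongly in med7-1002 and med21-1002 while med10-1002 stayed apart, so that their average described no single mutant. Among the 1126 transcripts called on average that differed, med10-1002 was the farthest mutant for 250 (22.2%), against 797 (70.8%) for med7-1002. PUT4, the high-affinity proline permease, had the largest average rise among the genes that the naming rule admits. It read 14.7 and 14.5 CPM in parent, while med7-1002 gave 708 and 1008, med21-1002 834 and 869.6, and med10-1002 26.9 and 24.3. The log2 fold changes were 5.88, 5.86 and 0.81, the average was 4.18 ± 0.19 (SE, adjusted p = 1.55e-05 by edgeR's quasi-likelihood test), and the mutants differed (adjusted p = 5.83e-06). SEO1, a putative permease, read 295 and 279 CPM in parent against 9.75 and 13.1 for med7-1002, 29.3 and 25.9 for med21-1002, and 406 and 397 for med10-1002. Its med10-1002 libraries thus lay above parent while the other 4 mutant libraries lay far below, and the mutants differed (adjusted p = 1.69e-06). IMD2, an IMP dehydrogenase of guanine nucleotide synthesis, read 65.3 and 57.8 CPM in parent, with 15.0 and 10.5 for med7-1002, 4.21 and 8.54 for med21-1002, and 43.0 and 45.1 for med10-1002.

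Of 6 tested genes of aromatic amino acid breakdown that the activator Aro80 controls, 4 were lower on average and none higher, with a median average log2 fold change of −1.16, and all 6 differed among the mutants. The list medians were −2.05 in med7-1002, −1.29 in med21-1002 and −0.07 in med10-1002, and 4 members were also lower without the med7-1002 libraries. ARO10, the phenylpyruvate decarboxylase of the pathway, read 2563 and 2523 CPM in parent, while med7-1002 gave 42.0 and 126, med21-1002 166 and 94.6, and med10-1002 2103 and 2043. Its average log2 fold change was −3.16 ± 0.32 (SE, adjusted p = 0.000534 by edgeR's quasi-likelihood test), with −4.91, −4.29 and −0.29 in the 3 mutants and a difference among them at an adjusted p of 8.54e-05. ARO9, the aromatic aminotransferase, stood at 1093 and 1077 CPM in parent and at means of 188, 168 and 821 in the mutants. ESBP6, a transporter-like protein, was 3.08-fold lower on average, with log2 fold changes of −2.76, −1.92 and −0.19, and PDC5 had an average of −0.71 (adjusted p = 0.00155).

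The promoters of ARO10 and ARO9 are shown because ARO10 and ARO9 had the largest average falls of the 4 called members of the list, and Aro80 binds paired CCG triplets. They lie at chrIV:1233863-1234112 and chrVIII:375429-375678 of R64, both on the plus strand, and capitals mark the spans of 2 CCG triplets separated by a spacer of fixed length, on either strand and with overlaps allowed.
ARO10: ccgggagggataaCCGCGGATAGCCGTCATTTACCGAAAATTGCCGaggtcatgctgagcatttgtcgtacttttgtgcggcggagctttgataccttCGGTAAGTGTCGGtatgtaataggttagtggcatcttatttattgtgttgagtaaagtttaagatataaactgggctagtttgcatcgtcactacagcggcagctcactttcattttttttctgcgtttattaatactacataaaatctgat
ARO9: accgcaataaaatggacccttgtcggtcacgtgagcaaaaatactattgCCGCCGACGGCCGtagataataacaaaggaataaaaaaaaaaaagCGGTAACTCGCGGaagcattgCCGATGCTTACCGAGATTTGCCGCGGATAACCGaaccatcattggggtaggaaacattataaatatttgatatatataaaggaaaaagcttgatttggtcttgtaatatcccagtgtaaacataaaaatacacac
The ARO10 window holds 4 such pairs and the ARO9 window 5. The Aro80 pair was found in 3.10% of the 4907 windows, in 4.27% of those of lower genes and in 10.4% of those of the 77 lower genes of at least 2-fold. In the higher genes it was found in 2.45%.

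**Figure D2:**
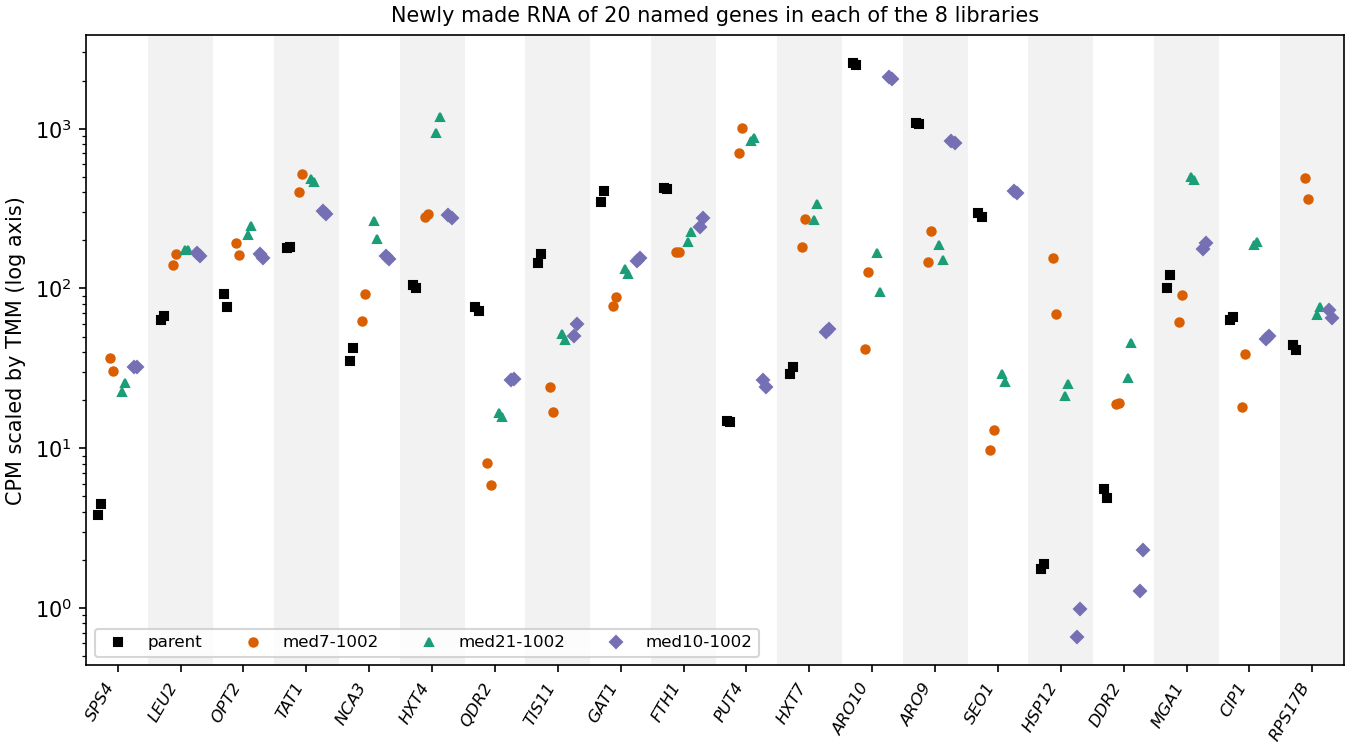
CPM scaled by TMM in each of the 8 libraries on a log axis for 20 named genes, with 2 points per group and no error bars. SPS4, LEU2, GAT1 and FTH1 have all 6 mutant libraries on 1 side of parent within a narrow band, while for PUT4, ARO10, SEO1 and HSP12 the med10-1002 libraries lie close to parent or on its other side.

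Of 28 tested general stress genes under the activators Msn2 and Msn4, 11 were higher on average, none lower and 17 did not pass, with list medians of 0.27 in med7-1002, 1.01 in med21-1002 and 0.07 in med10-1002, and 23 differed among the mutants. The count higher was 16 without the med7-1002 libraries, 5 without the med21-1002 libraries, 3 and 2 without parent replicate 1 or 2, 19 without med7-1002 replicate 1 and 7 without med10-1002 replicate 2. HSP26, a small heat shock protein, read 48.0 and 40.3 CPM in parent against 291 and 378 for med7-1002, 197 and 284 for med21-1002, and 47.6 and 42.3 for med10-1002, and rose 3.48-fold on average (adjusted p = 0.00058). CTT1, the cytosolic catalase, read 44.0 and 38.8 CPM in parent, with 56.6 and 154 for med7-1002, 293 and 345 for med21-1002, and 61.0 and 58.2 for med10-1002. It rose 3.05-fold on average, a call that was lost without either parent library, at log2 fold changes of 1.70 and 1.52. GAD1, the glutamate decarboxylase, rose 2.04-fold, which was not called without parent replicate 2 (log2 fold change 0.94).

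HSP12 and DDR2, small stress-induced proteins, had mutants on opposite sides of parent. HSP12 read 1.75 and 1.87 CPM in parent, while med7-1002 gave 156 and 69.1, med21-1002 21.2 and 25.1, and med10-1002 0.660 and 0.980. Its log2 fold changes of 5.94, 3.67 and −1.14 gave an average of 2.82 ± 0.38 (SE, adjusted p = 0.00159 by edgeR's quasi-likelihood test). DDR2 read 5.53 and 4.91 CPM in parent against 18.8 and 19.3 for med7-1002, 27.4 and 45.8 for med21-1002, and 1.27 and 2.304 for med10-1002. The med10-1002 libraries lay below parent for both genes while the other 4 mutant libraries lay above. Against parent by the same test, the fall in med10-1002 passed for DDR2 (adjusted p = 0.0357) but not for HSP12 (adjusted p = 0.211). HSP12 had 14 and 20 reads in med10-1002 against 33 and 34 in parent. The average of DDR2 (log2 fold change 1.04, adjusted p = 0.0295) was not called without parent replicate 1 or 2 (1.13 and 0.95), without med21-1002 replicate 2 (0.90) or without med10-1002 replicate 2 (0.88).

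The windows of HSP12 at chrVI:106947-107196 on the plus strand and DDR2 at chrXV:231789-232038 on the minus strand are shown because these genes differed in sign between mutants. Capitals mark AGGGG, the stress response element that Msn2 and Msn4 bind, on either strand, with 2 copies in HSP12 and 3 in DDR2.
HSP12: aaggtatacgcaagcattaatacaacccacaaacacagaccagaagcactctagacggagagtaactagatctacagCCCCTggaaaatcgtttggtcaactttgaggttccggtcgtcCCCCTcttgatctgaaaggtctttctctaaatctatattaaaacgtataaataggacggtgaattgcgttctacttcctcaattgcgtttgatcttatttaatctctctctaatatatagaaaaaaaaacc
DDR2: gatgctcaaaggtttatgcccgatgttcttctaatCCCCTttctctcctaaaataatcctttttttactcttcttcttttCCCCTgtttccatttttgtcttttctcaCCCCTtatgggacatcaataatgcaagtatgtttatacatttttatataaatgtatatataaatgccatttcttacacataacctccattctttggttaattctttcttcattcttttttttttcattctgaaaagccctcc
AGGGG was found in 19.5% of all 4907 windows, in 23.2% of the 693 higher genes and in 31.1% of the 119 higher genes of at least 2-fold. Among the 492 lower genes it was found in 17.5%. TATAAA was found in 41.7% of all windows, in 41.0% of the higher genes and in 44.5% of the lower genes. GATGAG, the core of an element of ribosome biogenesis genes, was found in 18.7% of all windows and in 13.3% of the higher genes. The general amino acid control motif TGACTC was found in 7.01% of all windows, 7.504% of the higher genes and 9.76% of the lower genes. CACGTG was found in 3.91% of all windows, 3.90% of the higher genes and 4.07% of the lower genes.

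Hexose transporter genes rose in all 3 mutants for some members and not for others. Of 11 tested, 5 were higher and 2 lower on average, and 7 were higher and 1 lower without the med7-1002 libraries. No member stayed lower when either parent library, either med21-1002 library or either med10-1002 library was left out. HXT4, a high-affinity transporter, read 105 and 101 CPM in parent, with 281 and 294 for med7-1002, 946 and 1180.5 for med21-1002, and 288 and 275 for med10-1002. All mutant libraries lay above parent and the average rise was 4.29-fold (adjusted p = 6.88e-05). HXT2, also of high affinity, read 324 and 308 CPM in parent and means of 1173, 965 and 613 in the mutants, a rise of 2.80-fold. HXT7 rose 5.07-fold, with log2 fold changes of 2.89, 3.30 and 0.84, and HXT6 rose 3.08-fold, but these 2 genes are nearly identical in sequence, so their separate counts are uncertain.

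Ribosomal protein genes gave 111 of the 704 transcripts that were higher on average. Of 135 tested, 111 were higher on average and none lower, with a median average log2 fold change of 0.80, and 132 of the 135 differed among the mutants. The list medians were 1.86 in med7-1002, 0.25 in med21-1002 and 0.28 in med10-1002, so most of the average came from 1 mutant. Without the med7-1002 libraries 66 members were higher and none lower, with a median of 0.27. The count was 64 without parent replicate 1 and 32 without parent replicate 2. Together these genes took 2.68% and 2.43% of the counts in parent, against 9.31% and 7.20% for med7-1002, 2.80% and 3.03% for med21-1002, and 3.43% and 3.13% for med10-1002. RPS17B, a subunit protein of the small ribosomal subunit, read 44.5 and 41.4 CPM in parent, while med7-1002 gave 493 and 361, med21-1002 68.0 and 76.9, and med10-1002 73.5 and 65.5, and was 3.004-fold higher on average (adjusted p = 0.000355). RPL41B had the largest average rise of the list (log2 fold change 2.15), which was not called without parent replicate 2 (1.96). Many of these genes come as paralog pairs of near-identical sequence, so single members are uncertain, and most transcripts of the list are short. With a correction for transcript length 110 members were higher, with a median of 0.73.

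Nuclear genes of respiration and the histone genes showed the same order of mutants with med21-1002 in between. Of 37 respiration genes, 28 were higher and none lower, with a median average of 0.91 and list medians of 1.72, 0.80 and 0.07 in med7-1002, med21-1002 and med10-1002. Without the med7-1002 libraries 21 were higher and 1 lower, and the count higher fell to 13 and 12 without parent replicate 1 or 2. COX12, a subunit of cytochrome c oxidase, read 20.4 and 20.8 CPM in parent against 106 and 111 for med7-1002, 47.7 and 48.7 for med21-1002, and 29.7 and 30.3 for med10-1002, and rose 2.62-fold on average (adjusted p = 0.000127). ATP5, a subunit of the mitochondrial ATP synthase, rose 2.03-fold, with log2 fold changes of 1.97, 0.80 and 0.29. Of 11 histone genes, 8 were higher and none lower, with list medians of 1.65, 0.69 and −0.17, and 6 were higher and 1 lower without the med7-1002 libraries. The count higher was 4 without either parent library. HTA2, a histone H2A gene, read 18.9 and 17.4 CPM in parent, with 355 and 232 for med7-1002, 74.95 and 90.7 for med21-1002, and 32.7 and 30.0 for med10-1002, a rise of 5.03-fold on average. HHF1, a histone H4 gene, rose 3.35-fold, and both have near-identical copies elsewhere in the genome. Histone messages are short and many are made in S phase, and the share of cells in each phase was not measured.

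Of 25 tested chaperone genes under the heat shock factor Hsf1, 11 were lower on average, none higher and 14 did not pass, with a median of −0.42 and list medians of −0.62, −0.14 and −0.34 in med7-1002, med21-1002 and med10-1002. Without the med7-1002 libraries 12 were lower, and 6 and 5 were lower without parent replicate 1 or 2. Without med7-1002 replicate 1 or 2, 4 members were higher. CUR1, a factor that sorts misfolded proteins, read 447 and 438 CPM in parent, while med7-1002 gave 106 and 120.1, med21-1002 182 and 179, and med10-1002 227 and 247. All mutant libraries lay below parent, with an average fall of 2.62-fold (adjusted p = 8.35e-05). HSP42, a small heat shock protein, read 2869 and 2934 CPM in parent and means of 1057, 1944 and 1608 in the mutants, 1.95-fold lower on average. FES1, a nucleotide exchange factor of Hsp70, was 1.97-fold lower, and AHA1, an activator of Hsp90, was 1.84-fold lower with log2 fold changes of −1.16, −0.92 and −0.55. HSP82 had an average log2 fold change of −0.31 that did not pass (adjusted p = 0.181). According to the labels, all strains, parent included, are hsp82- and carry DHSE-lacZ.

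**Figure D3:**
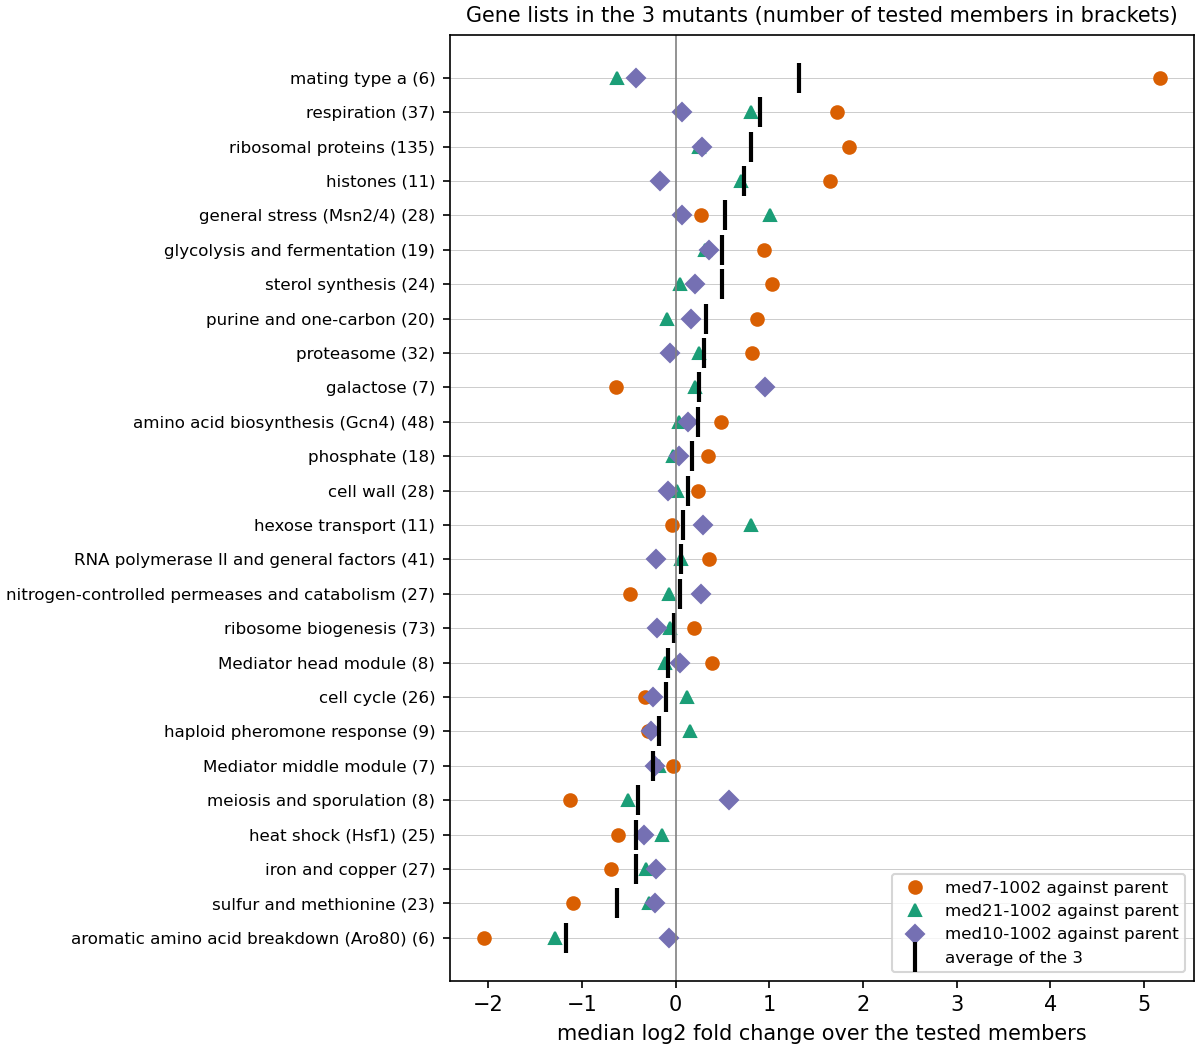
Median log2 fold change against parent over the tested members of the 26 gene lists with 6 or more of them, with 1 marker per mutant and a black bar for the average of the 3. The marker farthest right is the med7-1002 median of the 6 a-specific genes, at 5.17. For ribosomal proteins, respiration and histones, med7-1002 has the highest of the 3 mutant medians, at 1.86, 1.72 and 1.65. For general stress med21-1002 has the highest, at 1.01, and the Aro80 median in med10-1002 lies near 0 at −0.07.

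Lists of nutrient uptake were lower more often than higher for iron and sulfur. Of 27 iron and copper genes, 13 were lower and 1 higher, with a median of −0.42. The counts were 12 lower and 3 higher without the med7-1002 libraries, and 7 and 5 lower without parent replicate 1 or 2, and 4 were higher without med7-1002 replicate 1 or 2. FRE4, a ferric reductase, read 391 and 392 CPM in parent against 59.7 and 57.1 for med7-1002, 295 and 274 for med21-1002, and 197 and 187 for med10-1002, and was 2.66-fold lower on average (adjusted p = 6.88e-05). CCC2, a copper pump of the secretory path, was 1.93-fold lower, with all 6 mutant libraries between 176 and 377 CPM against 558 and 544 in parent. FIT3, a cell wall protein that helps retain iron-siderophore complexes, was the member that rose, 2.11-fold on average, with 839 and 699 CPM in med7-1002 against 118 and 145 in parent. Of 23 sulfur and methionine genes, 11 were lower and none higher, with a median of −0.62, and 13 were lower and 2 higher without the med7-1002 libraries. The count lower was 6 and 3 without parent replicate 1 or 2 and 18 without med7-1002 replicate 2. SAM3, the S-adenosylmethionine permease, read 1076 and 1009 CPM in parent, with 162 and 213 for med7-1002, 264 and 281 for med21-1002, and 827 and 776 for med10-1002, 3.02-fold lower on average. MMP1, the permease of S-methylmethionine, had log2 fold changes of −1.77, −1.46 and −0.06 in the same order.

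Nitrogen, amino acid and phosphate genes divided within their lists. Of 27 nitrogen-controlled permease and catabolism genes, 5 were higher and 6 lower, and without the med7-1002 libraries 14 were higher and 6 lower. Leaving out parent replicate 1 or 2 gave 3 and 3 higher and 3 and 1 lower, and leaving out med7-1002 replicate 1 gave 10 higher. GDH1, the glutamate dehydrogenase of ammonium assimilation, rose 2.46-fold, with 190.2 and 172 CPM in parent, while med7-1002 gave 843 and 1139, med21-1002 367 and 344, and med10-1002 258 and 244. Of 48 amino acid biosynthesis genes under Gcn4, 12 were higher and 5 lower, and leaving out 1 library moved these counts between 2 and 26 and between 1 and 12, with the lowest without a parent library (2 higher without parent replicate 2, and 1 lower without either) and the highest without a med7-1002 library (26 higher without replicate 1, 12 lower without replicate 2). ARG1 and ARG4 encode successive enzymes of arginine synthesis. ARG1 was 1.90-fold higher on average, with log2 fold changes of 1.97, 1.27 and −0.45, while ARG4 was 1.91-fold lower, with −1.59, −0.98 and −0.23. Of 18 phosphate genes, 4 were higher and 4 lower, and 2 or fewer were called in either direction when any 1 parent, med21-1002 or med10-1002 library was left out, while 10 were higher without med7-1002 replicate 1. PHO4, the activator of the pathway, read 149 and 169.9 CPM in parent and means of 39.8, 54.7 and 104 in the mutants, and was 2.62-fold lower on average (adjusted p = 8.5e-05).

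Biosynthesis and growth lists outside the ribosomal proteins gave smaller averages. Of 24 sterol synthesis genes, 13 were higher and 1 lower, with a median of 0.49 and list medians of 1.03, 0.05 and 0.20 in med7-1002, med21-1002 and med10-1002, but 4 were higher without parent replicate 1 and none without parent replicate 2. ERG3, a sterol desaturase, rose 1.67-fold on average, with 419 and 534 CPM in med7-1002 against 166 and 138 in parent, and this call was lost without parent replicate 2 (log2 fold change 0.61). Of 19 glycolysis and fermentation genes, 7 were higher and 1 lower, with none higher without either parent library and 18 and 12 higher without med7-1002 replicate 1 or 2. PDC5, a pyruvate decarboxylase, was the lower member, with 118 and 109.8 CPM in parent against 36.4 and 40.0 for med7-1002, 79.3 and 70.2 for med21-1002, and 121 and 115 for med10-1002. Of 20 purine and one-carbon genes 7 were higher and 1, IMD2, was lower, and the count higher was 1 and 0 without parent replicate 1 or 2 and 13 without med7-1002 replicate 1. Of 32 proteasome genes 12 were higher and none lower, with none higher without either parent library, 24 and 21 without a med7-1002 library, 5 without med21-1002 replicate 2, and 4 and 5 without a med10-1002 library. Of 73 ribosome biogenesis genes 3 were called on average, all higher, none without a parent library and 12 without med7-1002 replicate 1, while without the med7-1002 libraries 1 was higher and 18 were lower. In these 4 lists and the sterol list med7-1002 had the highest list median, at 1.03 for sterol synthesis, 0.94 for glycolysis, 0.87 for purines, 0.82 for the proteasome and 0.19 for ribosome biogenesis.

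Cell cycle and cell wall genes included members called in both directions. Of 26 cell cycle genes, 3 were higher and 5 lower. None was higher and 2 were lower without either parent library, 8 and 11 were lower without med7-1002 replicate 1 or 2, and 3, 2 and 3 were lower without med21-1002 replicate 2 and med10-1002 replicate 1 or 2. EGT2, which acts in the separation of daughter cells, read 1295 and 1438 CPM in parent, with 269 and 327 for med7-1002, 726 and 533 for med21-1002, and 861 and 846 for med10-1002, 2.52-fold lower on average (adjusted p = 0.000602). CLB1, a cyclin of mitosis, was 2.13-fold lower, with log2 fold changes of −1.48, −1.27 and −0.52. CLN1, a cyclin of G1, was 2.02-fold higher on average, with means of 114, 308 and 119 CPM in the mutants against 79.6 in parent, a call that was lost without parent replicate 1 or 2 (log2 fold changes 1.06 and 0.97). Of 28 cell wall genes, 5 were higher and 4 lower. Leaving out 1 library moved the count higher between 1 without a parent library and 12 without med7-1002 replicate 1, and the count lower between 0 without a parent library and 7 without med7-1002 replicate 2. NCA3, a SUN family gene outside these lists, read 35.3 and 42.6 CPM in parent, while med7-1002 gave 62.2 and 92.0, med21-1002 263 and 204, and med10-1002 159 and 154, and rose 3.63-fold on average.

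Of the 341 differing transcripts for which med21-1002 was farthest from the other mutants, 79 were also called on average. MGA1, a transcription factor tied to filamentous growth, read 101 and 121 CPM in parent against 62.0 and 91.6 for med7-1002, 502 and 476 for med21-1002, and 177 and 193 for med10-1002. The med21-1002 and med10-1002 libraries lay above parent and those of med7-1002 below, and the mutants differed (adjusted p = 3.55e-05 by edgeR's quasi-likelihood test). Its average log2 fold change of 0.78 was called, but not without parent replicate 1 or 2 (0.65 and 0.91). CIP1, an inhibitor of the G1 cyclin kinase, had an average of 0.00 although its log2 fold changes were −1.16, 1.55 and −0.40 and the mutants differed (adjusted p = 0.000136). Its levels were 63.3 and 66.4 CPM in parent, with 18.1 and 39.1 for med7-1002, 186 and 195 for med21-1002, and 48.3 and 50.2 for med10-1002. PDH1, a mitochondrial enzyme of propionate metabolism, read 9.57 and 8.38 CPM in parent, while med7-1002 gave 9.49 and 21.6, med21-1002 6.91 and 4.00, and med10-1002 29.7 and 30.4.

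Genes of the transcription machinery were rarely called on the average of all 3 mutants. Of 41 genes of RNA polymerase II and its general factors, 1 was higher and 2 lower. Without the med7-1002 libraries 1 was higher and 8 lower, where 12.2% of all tested transcripts were lower. Without the med10-1002 libraries 8 were higher and none lower, and without the med21-1002 libraries 5 were higher and 2 lower. Leaving out 1 library gave up to 10 higher and 6 lower, both without med7-1002 replicate 2, and none in either direction without a parent or a med10-1002 library. Of 7 tested Mediator middle module genes 1 was lower, SOH1 (the gene of Med31), at 37.7 and 46.4 CPM in parent and between 25.04 and 37.9 in the mutants, and its call was lost without either parent library, med21-1002 replicate 2 or either med10-1002 library. Of 8 head module genes 1 was higher, SRB2 (the gene of Med20), 1.73-fold on average, which was not called without either parent library. None of 3 tail and 2 kinase module genes was called. Of the 41, 29 differed among the mutants, and the list medians were 0.36 in med7-1002, 0.06 in med21-1002 and −0.21 in med10-1002. Meiosis genes, normally silent in haploid cells, gave 2 higher and 1 lower of 8, with a median of −0.40 and a mean of 0.07, which differ in sign, and without either parent library 1 was higher and none lower. Galactose genes gave 1 higher and 1 lower of 7, and none without either parent library. Of the 6 tested a-specific genes 3 were higher on average, against 1 without the med7-1002 libraries and 1 without parent replicate 2, and all 4 tested α-specific genes were lower, against 2 without them. Of 9 genes of the pheromone response 2 were lower, STE12 and FUS1, and neither was called without a parent library.

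The median average log2 fold change was −0.20 for stable unannotated transcripts, −0.21 for Xrn1-sensitive unstable transcripts and −0.40 for cryptic unstable transcripts, against 0.04 for coding transcripts, with no test between the classes. Of 378 stable unannotated transcripts (SUTs) 38 were lower and 7 higher on average, of 351 Xrn1-sensitive unstable transcripts (XUTs) 18 were lower and 4 higher, and of 110 cryptic unstable transcripts (CUTs) 5 were lower and none higher. For 4907 coding transcripts the counts were 693 higher and 492 lower. The share called lower was 10.1% of SUTs, 5.13% of XUTs and 4.55% of CUTs, against 10.03% of coding transcripts, and the share called higher was 1.85%, 1.14% and 0% against 14.1%. The 3 noncoding classes are shorter, with median lengths of 974.5, 791 and 550.5 nt against 1434 nt, and CUTs took at most 0.049% of the counts of a library. All tested transcripts of up to 500 nt had medians of 0.67 in med7-1002, −0.13 in med21-1002 and −0.36 in med10-1002. The part of length and low counts in the class values was not tested. The SUT medians were −0.54 in med7-1002, −0.44 in med21-1002 and 0.49 in med10-1002. Among the mutants 185 SUTs (48.9%) differed, a smaller share than the 58.1% of all tested transcripts. The XUT medians were −0.41, −0.39 and 0.27, whereas the CUT medians were 0.03, −0.56 and −0.48. SUTs took 0.626% and 0.682% of the counts in parent, while med7-1002 gave 0.401% and 0.244%, med21-1002 0.484% and 0.473%, and med10-1002 0.928% and 0.997%. The groups did not overlap in this share. Without the med7-1002 libraries 64 of the 378 SUTs were higher and 43 lower, close to the shares of all tested transcripts (15.3% higher and 12.2% lower).

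**Figure D4:**
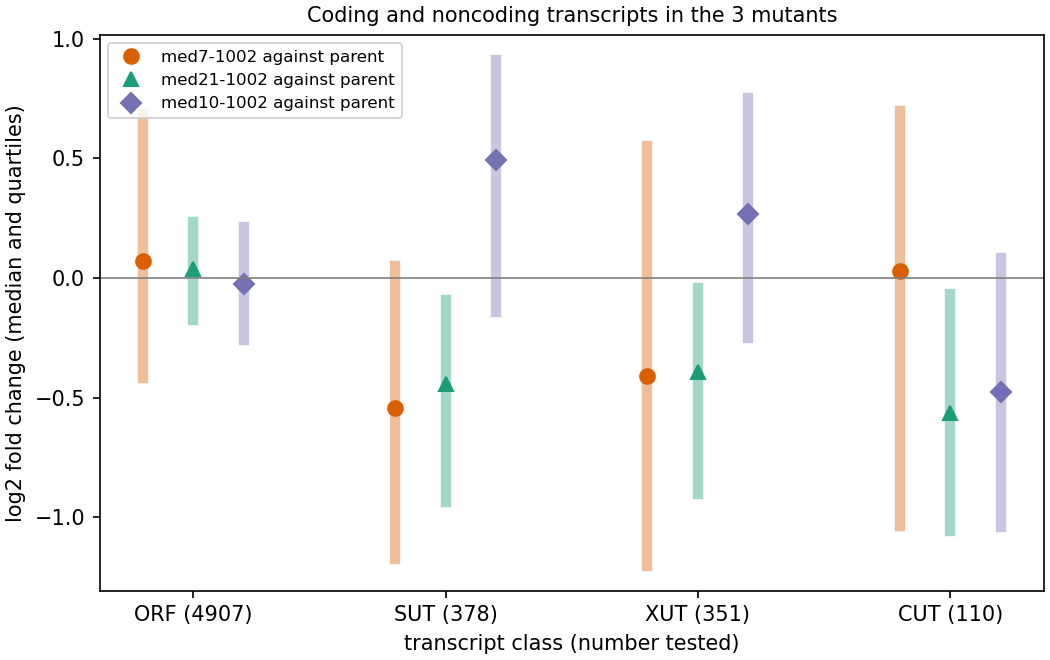
Log2 fold change against parent by transcript class, with a marker at the median and a bar from the lower to the upper quartile over the tested transcripts of the class, 1 bar per mutant. The medians of SUTs and XUTs lie below 0 in med7-1002 and med21-1002 and above 0 in med10-1002, at 0.49 for SUTs and 0.27 for XUTs, while the coding medians lie between −0.02 and 0.07.

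SUT674 (R64, chromosome XI, 341222 to 342110, minus strand) was the noncoding transcript with the largest average rise under the naming rule. It read 11.5 and 12.7 CPM in parent against 18.6 and 17.7 for med7-1002, 17.6 and 18.6 for med21-1002, and 83.9 and 76.4 for med10-1002, and the average log2 fold change was 1.29 ± 0.13 (SE, adjusted p = 0.000496 by edgeR's quasi-likelihood test). Without the med10-1002 libraries its log2 fold change was 0.58 and not called. It lies wholly within the coding gene SFK1 on the opposite strand, which was lower on average by a log2 fold change of −1.05. Of the noncoding transcripts with the largest falls, XUT_13F-137 read 22.2 and 34.7 CPM in parent and between 4.33 and 12.7 in all 6 mutant libraries, with log2 fold changes of −1.77, −1.34 and −1.68. It shares 74% of its span with SOK2 on the opposite strand, whose average log2 fold change was −1.02 at a mean of 1033 CPM in parent. XUT_5R-168 had an average of −1.53. It overlaps SSA4, at −0.66, over 26.9% of its span and RTT105, at −0.06 and 14.7 CPM in parent, over 48%. SUT330 had an average of −1.39. It overlaps YNL134C, at −0.67, over 68.9% of its span and FYV6, at 0.01 and 9.30 CPM in parent, over 5.63%. The calls of both XUTs were lost without parent replicate 2 (log2 fold changes −1.24 and −1.21), and that of SUT330 was lost without any 1 of the parent, med21-1002 or med10-1002 libraries (between −0.90 and −1.75). In each of these 3 cases 1 opposite coding gene fell as well at a far higher read count, while RTT105 and FYV6 were not called. Without the strand setting of the counter, the part of reads from opposite genes in the noncoding values was not tested.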

How the data were processed

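The authors deposited raw counts of reads per transcript, 1 table per library, with a transcript annotation on build R64 (sacCer3). The submitters' processing notes name HTSeq, SAMtools and the aligner STAR 2.3.0, and the strand setting is not given in the sources used here. Per the labels' protocols, purified labelled RNA (100 ng) went into the NuGEN Ovation Universal kit. Counts were fitted with edgeR 4.0.16 in R 4.3.3 (TMM scaling, filterByExpr with a minimum count of 10, 1 term per group, 8 libraries, 4 residual degrees of freedom, quasi-likelihood F test, Benjamini-Hochberg adjustment, threshold 0.05). The average contrast weighs the 3 mutant groups equally, and the difference among mutants is a test with 2 degrees of freedom. Reads in no annotated transcript entered neither library sizes nor tests, and the share per library is given with the results. Levels are CPM scaled by TMM, and the log2 CPM used for length classes and replicate spread had a prior count of 2. Precision is limited by 2 libraries per group. The procedure was tested on simulated data in which all groups had the same spread. That test cannot show how the procedure behaves with the unequal spread of these groups.

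The contrast, the 29 gene lists and the rules were chosen with earlier results of these data known. Named are the 10 coding genes per direction with the largest average among those called, with mean log2 CPM of at least 3 and all mutant libraries beyond both parent libraries (3 per direction for noncoding transcripts), the 5 per direction with the smallest range over mutants at 2-fold or more, the 5 with the largest range for each mutant that stands apart, the 2 to 4 members of each list with the smallest adjusted p, and MED7, SRB7, HSP82, HSC82 and URA3. SFK1, SOK2, SSA4, RTT105, YNL134C, FYV6 and XUT_2F-154 were added as overlapping partners after their values were seen. Alternatives were RLE scaling, library-size scaling, no filter, DESeq2 1.42.0, limma 3.58.1 with voom weights per group, a replicate block, a length correction, 1 term for all mutant libraries, and leaving out each group or library.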

Additional observations from a re-analysis of the deposited data

Results flagged for a closer look

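The 3 mutants differed from one another at 3339 transcripts by the test of their difference. Of the genes named for the largest ranges over the 3 log2 fold changes, 10 had mutants on opposite sides of parent. The range was 6.60 for MFA2 and 6.49 for MFA1, which encode the pheromone of a cells, and 6.09 for BAR1, with med7-1002 high in all 3. It was 2.72 for CIP1, 2.71 for NFG1, a regulator of filamentous growth that lies wholly opposite another annotated transcript, 2.67 for MGA1 and 2.45 for PDH1, with med21-1002 apart. It was 7.09 for HSP12, 5.12 for SEO1 and 4.35 for DDR2, with med10-1002 apart. The difference among the mutants passed the test for each of these 10 genes, but that test does not compare a mutant with parent. By edgeR's quasi-likelihood test against parent, changes on both sides passed for CIP1, MGA1 and DDR2. The smaller side did not pass for HSP12 and SEO1 in med10-1002 (adjusted p of 0.211 and 0.0750). Nor did it for BAR1, PDH1 and NFG1 in med21-1002 (0.110, 0.355 and 0.0659), or for MFA2 and MFA1 in either mutant below parent.

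The share of reads in no annotated transcript was above the parent maximum of 33.5% in all 6 mutant libraries. It was 49.5% and 37.7% for med7-1002, 36.3% and 34.3% for med21-1002, and 34.7% and 34.7% for med10-1002. What these reads are was not examined in the counts used here.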

How the results depend on the processing

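The average called 1257 transcripts, against 2187 (1198 higher, 989 lower) with voom weights per group, 1 (1 higher, 0 lower) with 1 term for all mutant libraries, 1286 with RLE scaling, 1390 with library-size scaling, 1234 without the filter, 1591 with DESeq2 and 1589 with a length correction. Leaving out 1 library gave 191 to 2739 called, 94 to 1455 higher, 97 to 1368 lower and 2247 to 4715 that differed among the mutants. The difference among mutants was called at 1872 transcripts without the med10-1002 libraries, 2896 without med21-1002 and 2318 with voom. Without the med7-1002 libraries the average turned for BAR1 (−0.46), MFA2 (−0.87), CIP1 (0.59), RED1 (0.25) and URA3 (−0.54), where CIP1, RED1 and URA3 were called (adjusted p of 0.000217, 0.0305 and 0.00104). Of 114 named transcripts called on average, 57 kept their call in every alternative except the fit with 1 term, and only SPS4 also kept it there. The causes were not tested. The libraries share replicate numbers, and their deviations from the group means correlated between −0.19 and 0.09 over pairs of groups. No strong effect shared by replicate number was visible, which does not show that the samples were unpaired. A replicate block called 933 on average (514 higher, 419 lower) and 2923 among the mutants. The size of change that 2 libraries per group can detect at this depth was not measured.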
